A study of Mus musculus with 18 samples.

Results

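The interferon response genes are 47 mouse genes chosen by name: factors that carry the interferon signal into the nucleus, RNA and DNA sensors, and the antiviral genes that these switch on. RNA of cardiac tissue had been sequenced in 18 libraries from wild-type mice, 6 for each of 3 treatments lasting 28 days. One group received angiotensin II (AngII) at 500 ng/kg/min together with ethoxysanguinarine (ETH) at 10 mg/kg/d, called AngII+ETH. Another received AngII alone at the same dose, and the controls received saline. Of the 47 genes, 44 had a transcript in every file, out of 12911 genes in all, and 39 of these were above 0 in every library. Mx1 and Mx2, genes of antiviral dynamin-like GTPases, matched no transcript in the files used here, and Zbp1 was listed in the AngII+ETH files only. The values are treated as FPKM, a level per transcript length and per sequenced fragment, which can be compared between genes. The labels do not say whether the libraries of a group come from separate animals, and every p-value here rests on the spread among these 18 libraries, which may be technical.

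Interferons are secreted proteins that warn cells of infection. Type I interferon acts through the receptor chains Ifnar1 and Ifnar2 and the kinases Jak1 and Tyk2, which phosphorylate Stat2. Stat2 joins Irf9 in a complex that binds the interferon-stimulated response element (ISRE) in promoters. Interferon gamma acts through Ifngr1 and Ifngr2, and promoters it induces carry the gamma-activated site (GAS). Angiotensin II is a peptide hormone that raises blood pressure and is infused in mice to produce cardiac hypertrophy and fibrosis. In the heart, macrophages, endothelial cells, fibroblasts and cardiomyocytes can all express interferon-induced genes, and in RNA of whole tissue fewer cells of a type and less RNA per cell cannot be told apart.

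Some features of the whole set of libraries touch the results. The AngII+ETH files hold a different list of transcripts from the saline and AngII files, so a difference in how the lists were made cannot be told apart from ETH, and only transcripts common to all files were summed. In 5 libraries the atrial gene Myl7 or the ventricular gene Myl2 was under 10 FPKM: AngII+ETH replicate 4, AngII replicates 3 and 5, and saline replicates 5 and 6. Saline replicates 4 and 6 held 105 and 168 FPKM of the fat cell gene Adipoq, against at most 20.4 FPKM in any other library. Cardiomyocyte markers were present in every library, at a mean log2(FPKM + 1) of 8.02 to 9.37 over 6 genes. All 14 macrophage markers were in every file. None of 10 T and NK cell markers and none of 4 B cell markers had a transcript in all files, nor did the interferon genes Ifnb1 and Ifng.

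A sequence shared by many of the genes is the ISRE in their promoters, and 7 promoter stretches are printed because they belong to genes whose values are given in full or to neighbours that are hard to tell apart. RefSeq promoters on build GRCm38.p6, 250 bases before to 50 after each annotated start, were found for 36 of the 47 genes. The ISRE was searched on both strands as GAAANNGAAA, and the capitals mark every match, overlapping matches run together.
Isg15: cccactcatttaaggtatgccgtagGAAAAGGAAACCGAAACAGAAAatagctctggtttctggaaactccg
Ifit1: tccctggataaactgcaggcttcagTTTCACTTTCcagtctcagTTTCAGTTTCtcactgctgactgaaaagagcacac
Ifit3: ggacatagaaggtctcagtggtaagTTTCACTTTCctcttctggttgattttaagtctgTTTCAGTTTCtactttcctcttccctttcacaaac
Bst2: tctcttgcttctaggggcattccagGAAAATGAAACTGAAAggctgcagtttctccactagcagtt
Stat2: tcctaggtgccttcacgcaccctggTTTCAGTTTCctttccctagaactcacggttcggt
Igtp: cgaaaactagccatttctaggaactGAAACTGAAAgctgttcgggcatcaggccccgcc
Irgm2: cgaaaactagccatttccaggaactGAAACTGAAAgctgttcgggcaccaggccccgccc
The stretches lie at chr4:156200850-156200921 on the minus strand for Isg15, and on the plus strand at chr19:34640760-34640838 for Ifit1 and chr19:34583348-34583441 for Ifit3. That of Bst2 lies at chr8:71537562-71537627 on the minus strand, and that of Stat2 at chr10:128270251-128270310 on the plus strand. Those of Igtp and Irgm2 lie at chr11:58199497-58199555 and chr11:58214888-58214947 on the plus strand. Isg15 held 3 overlapping matches, Ifit1, Ifit3 and Bst2 held 2 each, and Stat2, Igtp and Irgm2 held 1 each. The stretch of Ifit3b, the neighbour of Ifit3 at chr19:34607744-34607837, was identical to that of Ifit3 in all 94 bases. Igtp and Irgm2 shared 57 of 59 bases. An ISRE match was present in the promoter of 21 of 36 of the interferon response genes (58.3%), against 3.99% of all 27025 genes in the promoter table. The GAS, searched as TTCNNNGAA, which is its own reverse complement, was present in 15 of 36 (41.7%), against 9.55% of all genes.

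The levels were dominated by a few genes. Ifitm3, a membrane protein that blocks virus entry, averaged 136 FPKM over the 18 libraries and made up 27.7% to 42.9% of the summed FPKM of the 44 genes. Ifi27l2a, a small interferon-induced protein, averaged 45.0 FPKM, Bst2 (tetherin, which holds budding virus at the cell surface) 30.5 FPKM and the transcription factor Irf1 12.1 FPKM. By contrast, 32 of the 44 averaged under 5 FPKM and 11 averaged under 2 FPKM. The median SD within groups on the log2(FPKM + 1) scale was 0.35 for the 42 genes that passed the filter on low values and 0.32 for all 11703 genes that passed. Ifi27l2a had the widest spread within groups, with an SD of 0.93, and Irf1 the narrowest, with 0.18.

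Within a group, single libraries stood out. AngII+ETH replicate 5 held the highest value of 23 of the 42 tested genes, although it held the highest value of only 12.1% of all genes tested. These 23 included 4 of the 5 guanylate-binding protein genes (Gbp2, Gbp5, Gbp6 and Gbp7), all 4 immunity-related GTPase genes (Igtp, Irgm1, Irgm2 and Ifi47), and Stat2, Ifit2, Ifit3, Bst2 and Ifitm3. AngII+ETH replicate 1 held the highest value of 8 others, against 2.93% of all genes, namely Isg15, Usp18, Irf7, Rsad2, Cmpk2, Isg20, Oas2 and Xaf1. The mean log2(FPKM + 1) over the 44 genes was 2.86 in AngII+ETH replicate 5 and 2.42 in AngII+ETH replicate 1, while the other 4 AngII+ETH libraries lay between 2.09 and 2.35. It ranged from 1.88 to 2.41 in AngII and from 1.80 to 2.41 in saline. Group means were 2.32 ± 0.30 in AngII+ETH, 2.14 ± 0.21 in AngII and 2.19 ± 0.24 in saline (SD, n = 6 each), and the 3 groups overlapped.

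**Figure D1:**
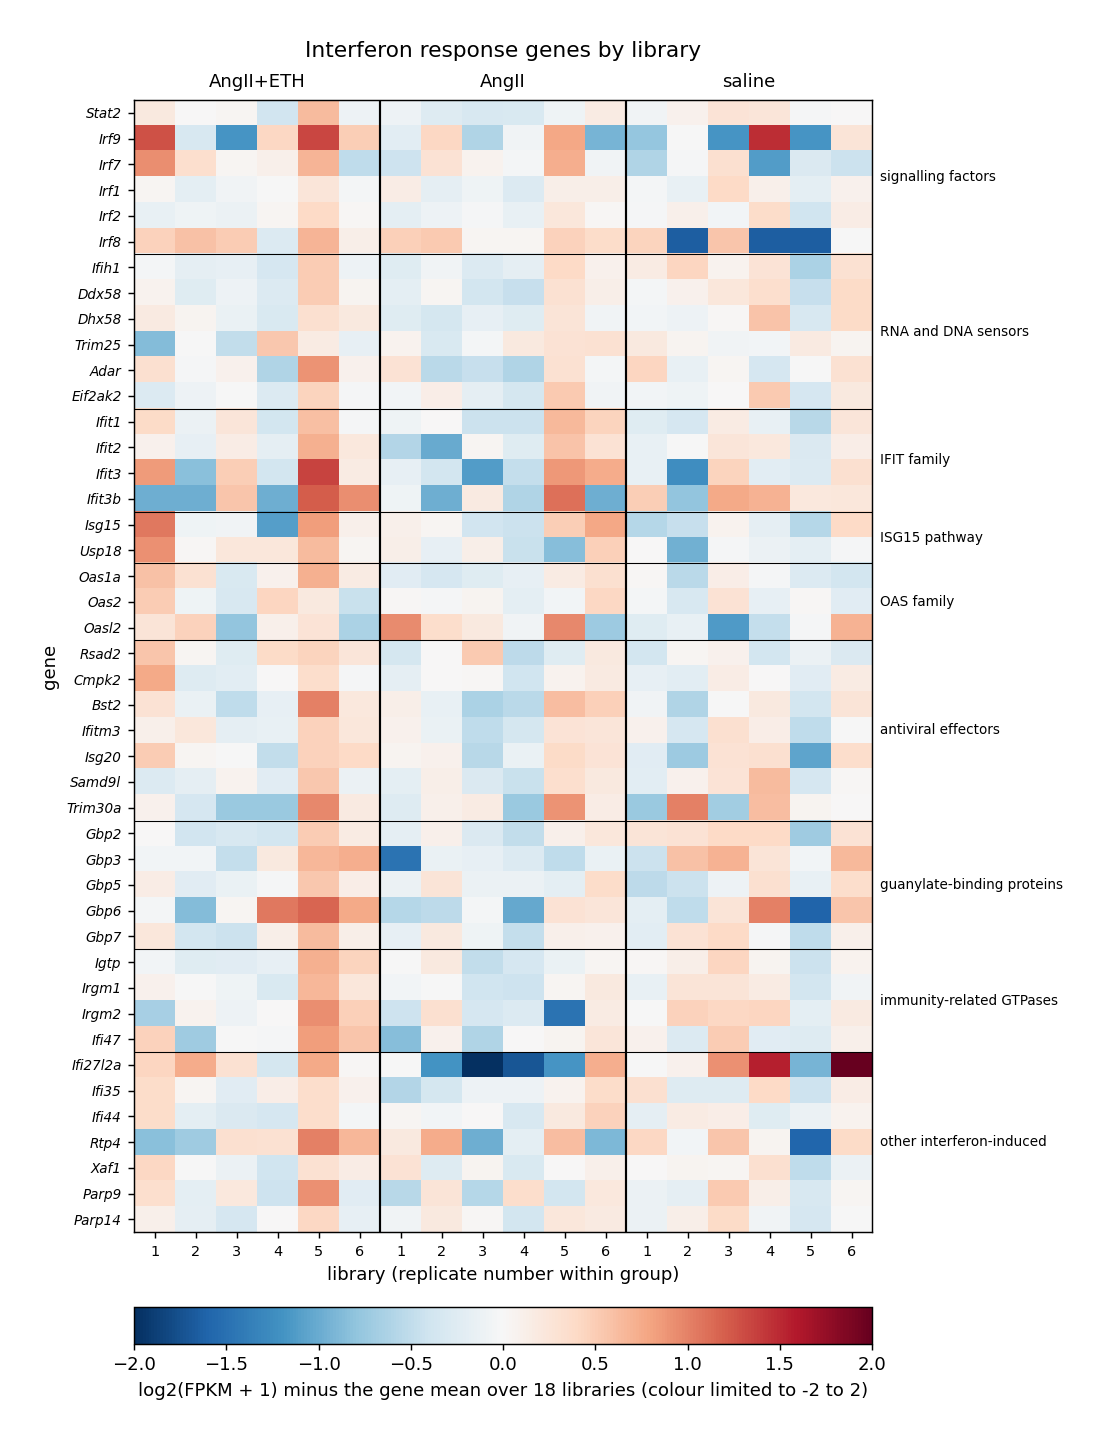
Deviation of each of the 44 interferon response genes (rows, by role) from its own mean over 18 libraries, in log2(FPKM + 1), with libraries as columns in 3 groups of 6. AngII+ETH replicate 5 is above the mean for most rows, AngII+ETH replicate 1 stands out for Isg15, Usp18, Irf7 and Cmpk2, and AngII replicates 3 and 4 and saline replicate 5 are mostly below.

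**Figure D2:**
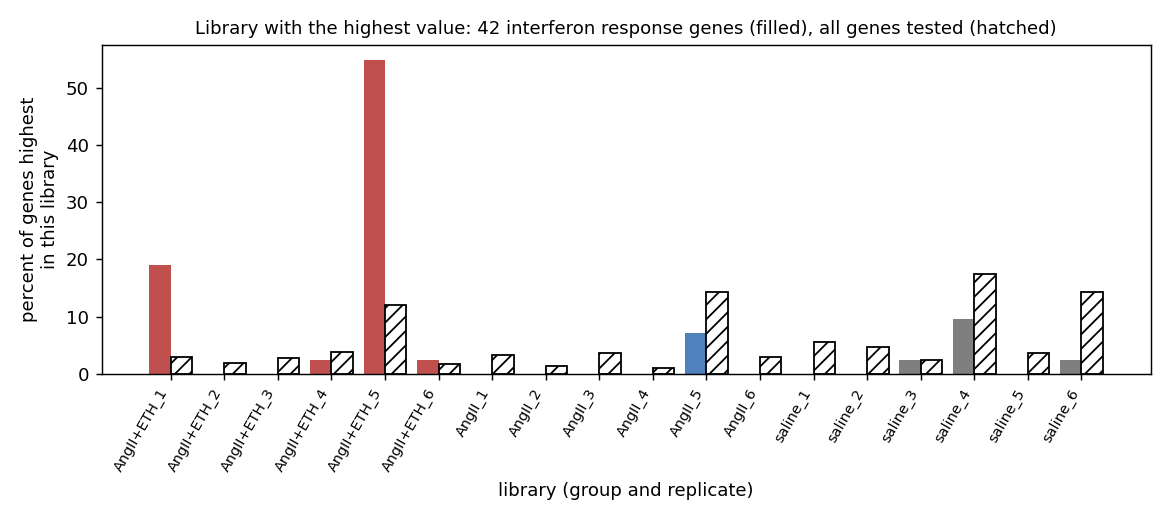
Percent of the 42 tested interferon response genes (filled bars) and of all genes tested (hatched bars) that have their highest value in each library (x axis). AngII+ETH replicate 5 holds 23 of the 42 genes against 12.1% of all genes, and AngII+ETH replicate 1 holds 8 against 2.93%.

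The 42 tested genes were read from a fit over all 11703 genes, with an adjusted p under 0.05 as the threshold. In AngII+ETH against AngII, the comparison that asks what ETH adds, none of the 42 passed, nor did any other gene (0% of all genes tested). At an unadjusted p under 0.05, 2 of the 42 were higher, against 1.26% of all genes, and 0 were lower, against 0.649%. The log2 fold change was positive for 37 of the 42, against 56.8% of all genes, with a median of 0.17 for the 42 and 0.02 for all genes. Without AngII+ETH replicate 5 it was positive for 24 of the 42, against 48.9% of all genes. The median was then 0.07 for the 42 and -0.004 for all genes. With each of the other 11 libraries of the comparison left out in turn, between 31 and 38 were positive, against 51% to 62.1% of all genes. With quantile normalization 32 were positive, against 45.8% of all genes, with medians of 0.13 and -0.01. Irf1, Irf8, Isg15, Oas2 and Samd9l, all close to 0, turned negative there. None of the 42 had all its AngII+ETH libraries above all AngII libraries, against 0.0342% of all genes, or all below, against 0.0171%.

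**Figure D3:**
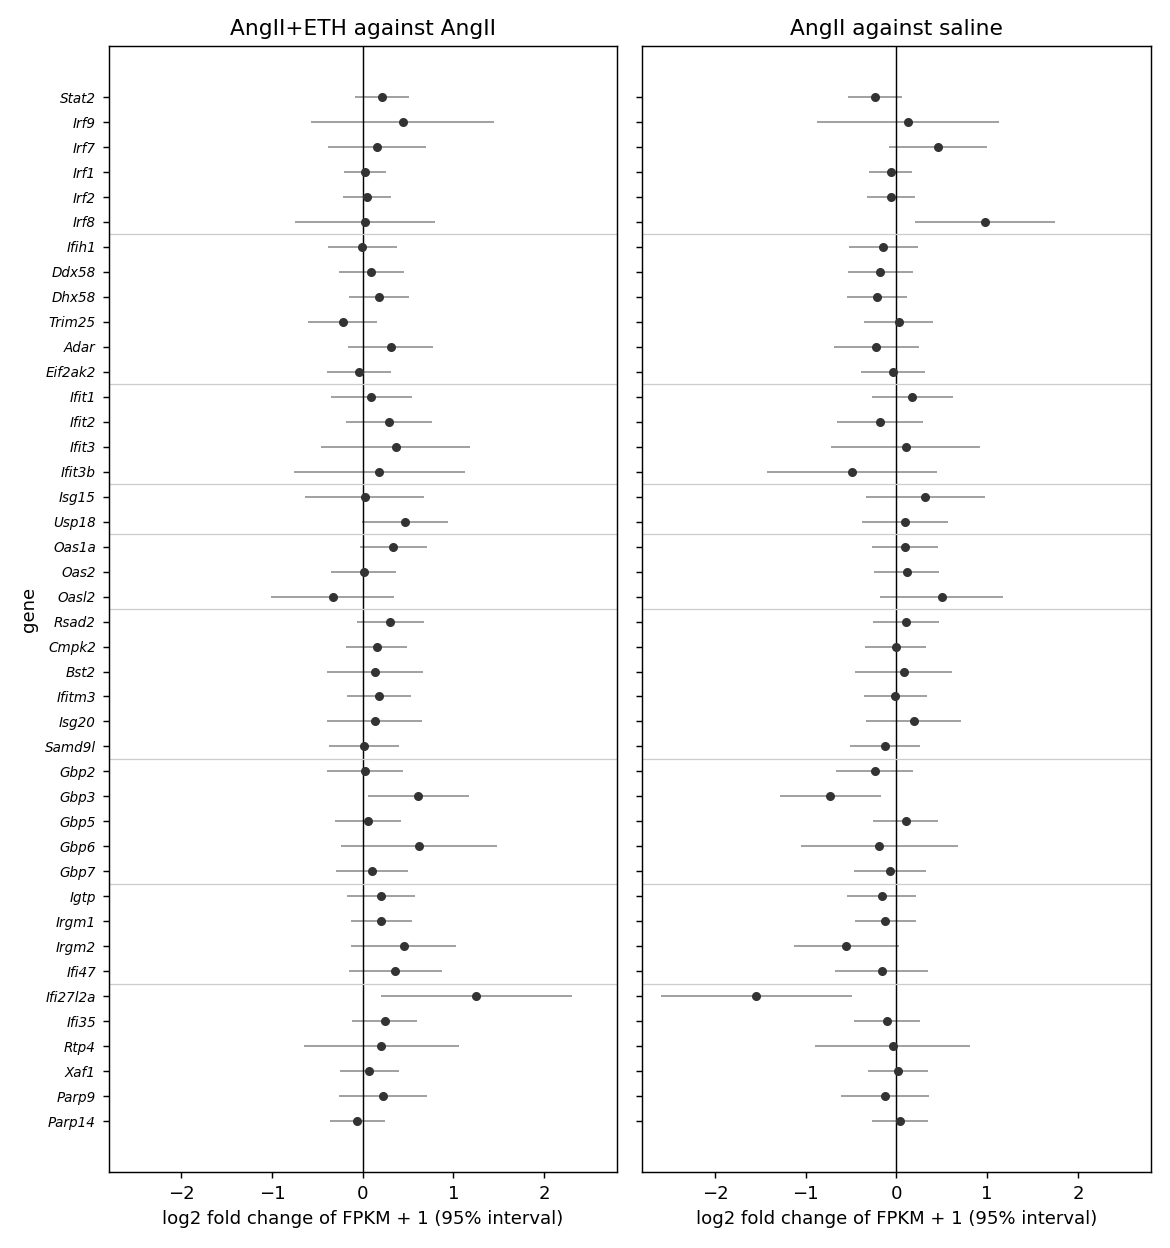
Log2 fold change of FPKM + 1 with its 95% interval (x axis) for the 42 tested interferon response genes (y axis, by role) in AngII+ETH against AngII (left) and AngII against saline (right), which share the AngII libraries. In the left panel 37 of 42 points lie to the right of 0 and in the right panel 17 of 42 do, and the widest intervals belong to Ifi27l2a, Irf9, Ifit3b, Gbp6 and Rtp4.

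In AngII against saline, which asks what angiotensin II does alone, 0 of the 42 passed the threshold, against 0.00854% of all genes, which is 1 gene, the lipase inhibitor gene Angptl4. At an unadjusted p under 0.05, 1 of the 42 was higher, against 3.28% of all genes, and 2 were lower, against 5.78%. The gene that was higher was Irf8, whose sum left out a transcript that some saline libraries held and no AngII library did. The log2 fold change was positive for 17 of the 42, against 39.2% of all genes, and its median was -0.05 for the 42 and -0.06 for all genes. With quantile normalization the count was 23 of 42, against 51.4%, and the median 0.02 for the 42 and 0.007 for all genes. None of the 42 had groups that did not overlap, against 0.162% of all genes higher and 0.197% lower in AngII. In AngII+ETH against saline, 0 of the 42 passed, against 0.00854% of all genes, again Angptl4 alone. At an unadjusted p under 0.05, 5 of the 42 were higher, against 3.5% of all genes, and these were Irf8, Usp18, Oas1a, Irf7 and Rsad2. None was lower, against 4.01% of all genes. Here too the Irf8 sum left that transcript out. The log2 fold change was positive for 27 of the 42, against 43.7% of all genes, with a median of 0.10 for the 42 and -0.03 for all genes. Without AngII+ETH replicate 5 the count was 20 of the 42, against 38.8%, and the median -0.01 for the 42 and -0.07 for all genes. The smallest adjusted p of any of the 42 was 0.486 in AngII against saline, 1 in AngII+ETH against AngII and 0.521 in AngII+ETH against saline.

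Among the transcription factors, Stat2, the signal carrier of type I interferon, had 2.58 to 6.28 FPKM in AngII+ETH (median 3.75), 2.75 to 4.26 FPKM in AngII (median 3.15) and 3.45 to 4.67 FPKM in saline (median 3.84). The groups overlapped, and the highest value was AngII+ETH replicate 5. Stat2 had a log2 fold change of 0.22 (SE 0.14, adjusted p = 1) in AngII+ETH against AngII and -0.24 (SE 0.14, adjusted p = 0.648) in AngII against saline. Irf7, which amplifies the production of type I interferon, had 1.83 to 6.68 FPKM in AngII+ETH (median 3.72), 2.04 to 5.71 FPKM in AngII (median 3.10) and 0.865 to 4.02 FPKM in saline (median 2.15). The medians were thus in the order AngII+ETH, AngII, saline, with wide overlap. A further Irf7 transcript, present in the AngII+ETH files only at 0.102 to 1.67 FPKM, is not in these sums. Likewise left out were an Isg20 transcript of the AngII+ETH files, at 0.221 to 1.94 FPKM, and an Rtp4 transcript of the other files, at 0 to 1.15 FPKM in AngII and 0 to 1.60 FPKM in saline. Against saline, the log2 fold change of Irf7 was 0.62 in AngII+ETH (SE 0.26, adjusted p = 0.593) and 0.46 in AngII (SE 0.26, adjusted p = 0.622). Irf1, an early target of interferon gamma, was the steadiest of the 42, at 10.3 to 14.5 FPKM in AngII+ETH, 9.79 to 13.4 FPKM in AngII and 10.4 to 16.1 FPKM in saline. Its log2 fold changes were 0.02 in AngII+ETH against AngII (SE 0.11, adjusted p = 1) and -0.06 in AngII against saline (SE 0.11, adjusted p = 0.893). Irf2, which competes with Irf1 for its sites, had medians of 5.81, 5.66 and 6.16 FPKM in AngII+ETH, AngII and saline.

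Irf9, the DNA-binding partner of Stat2, was listed at 0 in AngII+ETH replicate 3 and in saline replicates 3 and 5. In AngII+ETH it reached 4.68 FPKM in replicate 5 and 4.47 FPKM in replicate 1, in AngII it ran between 0.184 and 2.85 FPKM, and the highest value of all, 5.26 FPKM, was saline replicate 4. No group stood apart, and the log2 fold change in AngII+ETH against AngII was 0.44 (SE 0.48, adjusted p = 1). Irf8, a factor of myeloid cells, had 1.59 to 4.04 FPKM in AngII+ETH, 2.21 to 3.49 FPKM in AngII, and in saline it was listed at 0 in replicates 2 and 4 and at 0.0051 FPKM in replicate 5. Its log2 fold change, the largest positive one in AngII against saline, was 0.98 (SE 0.37, adjusted p = 0.488). A further Irf8 transcript, present in the saline and AngII files only, was listed at 0 in every AngII library and held 2.46, 2.09 and 1.79 FPKM in those 3 saline libraries. With that transcript added, Irf8 had 2.21 to 3.49 FPKM in AngII and 1.79 to 3.60 FPKM in saline, and the log2 fold change was 0.16 (adjusted p = 0.799). The value of 1.00 (SE 0.37, adjusted p = 0.521) for Irf8 in AngII+ETH against saline rests on the same low saline values.

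Among the sensors of foreign nucleic acid, Ifih1 (MDA5, a sensor of long double-stranded RNA) had 1.22 to 2.999 FPKM in AngII+ETH (median 1.56), 1.31 to 2.69 FPKM in AngII (median 1.57) and 0.805 to 2.79 FPKM in saline (median 2.26). Its log2 fold change was -0.0047 (SE 0.18, adjusted p = 1) in AngII+ETH against AngII, with a 95% interval of -0.39 to 0.38. In AngII+ETH against saline the log2 fold change of Ifih1 was -0.15 (SE 0.18, adjusted p = 0.852). Ddx58 (RIG-I, a sensor of RNA with a free triphosphate end) had medians of 4.34 FPKM in AngII+ETH, 4.16 FPKM in AngII and 5.05 FPKM in saline, and its highest value, 6.74 FPKM, was AngII+ETH replicate 5. For Ddx58 the log2 fold change was 0.09 (SE 0.17, adjusted p = 1) in AngII+ETH against AngII and -0.18 (SE 0.17, adjusted p = 0.784) in AngII against saline. Trim25, a ubiquitin ligase that acts on RIG-I, ran in AngII+ETH between 2.65 FPKM in replicate 1 and 8.67 FPKM in replicate 4, against 4.36 to 7.20 FPKM in AngII and 5.34 to 6.60 FPKM in saline. AngII+ETH thus held both its lowest and its highest library. On the log2 scale its fold change was -0.22 (SE 0.18, adjusted p = 1) in AngII+ETH against AngII and -0.20 (SE 0.18, adjusted p = 0.812) in AngII+ETH against saline. Adar, an RNA editing enzyme, had a median of 4.12 FPKM in AngII+ETH, 3.08 FPKM in AngII and 3.86 FPKM in saline, and 16.8% of its exon bases overlap Chrnb2 on the opposite strand. The kinase gene Eif2ak2 (PKR) and the RIG-I relative Dhx58 (LGP2) had log2 fold changes of -0.04 and 0.18 in AngII+ETH against AngII. In all, 3 of the 6 tested sensors were positive in AngII+ETH against AngII, 1 of 6 in AngII against saline and 1 of 6 in AngII+ETH against saline. Of all genes, 56.8%, 39.2% and 43.7% were positive in these comparisons, shares that also stand beside the counts by role below. Counts by role depend on the scaling. In AngII against saline, 17 of the 42 genes were positive in the main fit and 23 with quantile normalization. Zbp1, a sensor of Z-form nucleic acid, summed to 3.04 FPKM in AngII+ETH replicate 5 and 2.19 FPKM in replicate 1 and to 0.329 to 1.02 FPKM in the other AngII+ETH libraries, and it has no value in the other groups here.

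The IFIT genes encode proteins that bind viral RNA and lie together at chr19:34550694-34650009 on the plus strand of GRCm38. Ifit3 had 2.45 to 14.8 FPKM in AngII+ETH (median 6.81), 1.85 to 10.2 FPKM in AngII (median 4.14) and 1.60 to 7.40 FPKM in saline (median 4.44). Its high libraries were AngII+ETH replicates 5 and 1 and AngII replicates 5 and 6, and the groups overlapped. Ifit3 had a log2 fold change of 0.36 (SE 0.39, adjusted p = 1) in AngII+ETH against AngII and 0.10 (SE 0.39, adjusted p = 0.953) in AngII against saline. Its neighbour Ifit3b was listed at 0 in 3 AngII+ETH and 2 AngII libraries and had 0.135 to 2.32 FPKM in saline. The log2 fold change of Ifit3b against saline was -0.49 in AngII (SE 0.45, adjusted p = 0.778) and -0.30 in AngII+ETH (SE 0.45, adjusted p = 0.880). In AngII+ETH against AngII it was 0.19 (SE 0.45). Of the 50-base stretches of Ifit3, 51.2% also occur in another transcript (Ifit3b), and of those of Ifit3b 45.0%, so how the counting divided fragments between them is uncertain. Ifit1 had medians of 1.62 FPKM in AngII+ETH, 1.35 FPKM in AngII and 1.10 FPKM in saline, and its log2 fold change in AngII+ETH against AngII was 0.09 (SE 0.21, adjusted p = 1). Ifit2 had medians of 2.53, 2.04 and 2.40 FPKM in AngII+ETH, AngII and saline. All 4 IFIT genes were positive in AngII+ETH against AngII, 2 of 4 in AngII against saline and 3 of 4 in AngII+ETH against saline.

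Isg15 encodes a ubiquitin-like protein that is attached to other proteins, and Usp18 the protease that removes it and also damps signalling at the type I receptor. Isg15 had 1.33 to 9.46 FPKM in AngII+ETH (median 4.09), 2.74 to 7.61 FPKM in AngII (median 4.26) and 2.37 to 5.59 FPKM in saline (median 3.03). AngII+ETH held both the lowest library, replicate 4, and the highest, replicate 1. On the log2 scale its fold change was 0.02 (SE 0.31, adjusted p = 1) in AngII+ETH against AngII and 0.32 (SE 0.31, adjusted p = 0.789) in AngII against saline. Usp18 had 1.69 to 3.98 FPKM in AngII+ETH (median 2.12), 0.466 to 2.70 FPKM in AngII (median 1.62) and 0.369 to 1.66 FPKM in saline (median 1.53). Each of the 6 AngII+ETH libraries was above each of the 6 saline libraries, with the nearest values at 1.69 and 1.66 FPKM. It was the only gene of the 42 whose AngII+ETH and saline libraries did not overlap, while 0.359% of all genes did not overlap in that direction. Usp18 had a log2 fold change of 0.56 (SE 0.23, adjusted p = 0.563) in AngII+ETH against saline, 0.47 (SE 0.23, adjusted p = 1) in AngII+ETH against AngII and 0.09 (SE 0.23, adjusted p = 0.920) in AngII against saline.

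**Figure D4:**
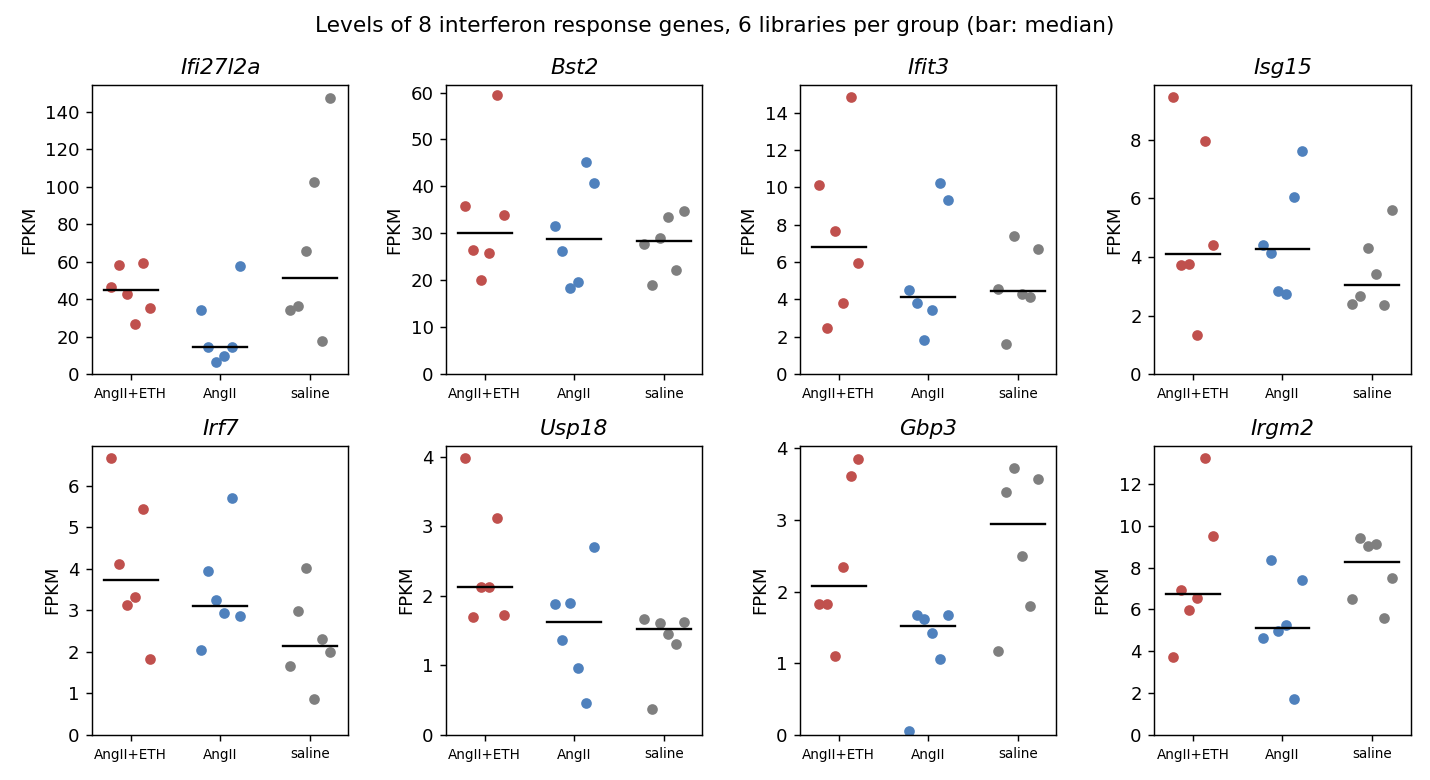
FPKM (y axis, starting at 0) of 8 interferon response genes in the 6 libraries of AngII+ETH, AngII and saline (x axis), where each point is 1 library and the bar is the group median. The 6 AngII+ETH points of Usp18 lie above all saline points, the saline points of Ifi27l2a reach 147 FPKM, and 1 AngII library of Gbp3 is near 0.

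The OAS genes encode enzymes that activate the RNase L pathway, or relatives of them. Oas1a had 1.26 to 3.58 FPKM in AngII+ETH (median 2.28), 1.21 to 2.47 FPKM in AngII (median 1.44) and 0.911 to 2.05 FPKM in saline (median 1.53). The AngII+ETH range reached highest and the groups overlapped. In the fit, its log2 fold change was 0.43 (SE 0.17, adjusted p = 0.567) in AngII+ETH against saline and 0.34 (SE 0.17, adjusted p = 1) in AngII+ETH against AngII. Of its 50-base stretches, 57.6% are shared, with Oas1g and Oas1b. Oasl2 went the other way in AngII+ETH against AngII, with 0.945 to 3.66 FPKM in AngII+ETH (median 2.83), 1.03 to 5.54 FPKM in AngII (median 3.09) and 0.533 to 4.42 FPKM in saline (median 1.94). As fitted, its log2 fold change was -0.33 (SE 0.32, adjusted p = 1) in AngII+ETH against AngII and 0.50 (SE 0.32, adjusted p = 0.671) in AngII against saline, and the groups overlapped. Oas2 had medians of 1.10, 1.01 and 0.867 FPKM in AngII+ETH, AngII and saline.

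Among the antiviral effectors, Bst2 had 20.1 to 59.6 FPKM in AngII+ETH (median 30.1), 18.4 to 45.2 FPKM in AngII (median 28.9) and 18.9 to 34.8 FPKM in saline (median 28.4). The medians were close together and the value of 59.6 FPKM was AngII+ETH replicate 5. On the log2 scale its fold change was 0.14 (SE 0.25, adjusted p = 1) in AngII+ETH against AngII and 0.08 (SE 0.25, adjusted p = 0.940) in AngII against saline. Ifitm3 had 118 to 183 FPKM in AngII+ETH (median 149.7), 93.7 to 162 FPKM in AngII (median 132) and 93.8 to 167 FPKM in saline (median 137), so that its groups overlapped over most of their range. Ifitm3 had a log2 fold change of 0.18 (SE 0.17, adjusted p = 1) in AngII+ETH against AngII and -0.01 (SE 0.17, adjusted p = 0.988) in AngII against saline. Rsad2 (viperin, which makes a chain-terminating nucleotide) had 2.54 to 5.15 FPKM in AngII+ETH (median 4.19), 1.89 to 4.99 FPKM in AngII (median 2.85) and 2.22 to 3.44 FPKM in saline (median 2.63). In AngII+ETH, 4 of its 6 libraries exceeded every saline library. On the log2 scale its fold change was 0.41 (SE 0.17, adjusted p = 0.620) in AngII+ETH against saline and 0.30 (SE 0.17, adjusted p = 1) in AngII+ETH against AngII. Cmpk2, a nucleotide kinase gene beside Rsad2, had a highest value of 6.78 FPKM in AngII+ETH replicate 1, the library in which Rsad2 was also highest. All 6 tested effectors, which also include the exonuclease gene Isg20 and Samd9l, were positive in AngII+ETH against AngII (Samd9l not with quantile normalization), 3 of 6 in AngII against saline (5 of 6 with quantile normalization) and 5 of 6 in AngII+ETH against saline. Trim30a was below the filter on low values, at 0 to 2.24 FPKM in AngII+ETH, 0 to 2.11 FPKM in AngII and 0 to 2.36 FPKM in saline.

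Guanylate-binding proteins (GBP) and immunity-related GTPases (IRG) are GTPases that mouse cells make mainly in answer to interferon gamma and that attack vacuoles holding microbes. Gbp2, the most abundant GBP gene, had 7.21 to 14.2 FPKM in AngII+ETH (median 8.66), 6.55 to 11.5 FPKM in AngII (median 9.39) and 5.51 to 13.04 FPKM in saline (median 12.02). The low saline value was replicate 5, and the other 5 saline libraries were at 11.7 FPKM or more. In the fit, its log2 fold change was 0.03 (SE 0.20, adjusted p = 1) in AngII+ETH against AngII and -0.24 (SE 0.20, adjusted p = 0.754) in AngII against saline. In AngII+ETH against saline Gbp2 was at -0.21 (SE 0.20, adjusted p = 0.817). Gbp3 had 1.10 to 3.85 FPKM in AngII+ETH (median 2.08), 0.0505 to 1.68 FPKM in AngII (median 1.52) and 1.17 to 3.73 FPKM in saline (median 2.95). All 6 AngII libraries were at or below 1.68 FPKM, a level that 5 of 6 AngII+ETH and 5 of 6 saline libraries exceeded. Gbp3 had a log2 fold change of 0.61 (SE 0.26, adjusted p = 1) in AngII+ETH against AngII and -0.73 (SE 0.26, adjusted p = 0.488) in AngII against saline, 2 comparisons that share the AngII libraries. Gbp6 was listed at 0 in saline replicate 5, and 91.1% of its 50-base stretches are shared with Gm43302 and Gbp10. Gbp5 and Gbp7 had log2 fold changes of 0.06 and 0.11 in AngII+ETH against AngII. All 5 GBP genes were positive in AngII+ETH against AngII, 1 of 5 in AngII against saline and 3 of 5 in AngII+ETH against saline. Of these, Gbp2, Gbp5, Gbp6 and Gbp7 were highest in AngII+ETH replicate 5.

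Igtp (Irgm3), Irgm1 and Irgm2 are IRG genes of mouse chromosome 11, and the proteins of the Irgm kind hold other IRG proteins inactive on the cell's own membranes. Igtp had 4.75 to 10.1 FPKM in AngII+ETH (median 5.29), 3.79 to 6.78 FPKM in AngII (median 5.47) and 4.01 to 8.15 FPKM in saline (median 6.07). In AngII+ETH, replicates 5 and 6 were high and the other 4 libraries lay within the AngII range. Irgm1 had medians of 7.39 FPKM in AngII+ETH, 6.96 FPKM in AngII and 7.42 FPKM in saline, and its log2 fold change in AngII+ETH against AngII was 0.21 (SE 0.16, adjusted p = 1), beside 0.20 for Igtp (SE 0.18, adjusted p = 1). Irgm2 had 3.72 to 13.3 FPKM in AngII+ETH (median 6.73), 1.69 to 8.37 FPKM in AngII (median 5.10) and 5.59 to 9.40 FPKM in saline (median 8.26). AngII replicate 5 was its lowest library, although that library held the highest values of Ifit1, Oasl2 and Eif2ak2. As fitted, its log2 fold change was -0.55 (SE 0.28, adjusted p = 0.577) in AngII against saline and 0.45 (SE 0.28, adjusted p = 1) in AngII+ETH against AngII. Igtp and Irgm2 overlap on the same strand, and 12.3% of the 50-base stretches of Igtp are shared with Irgm2. All 4 IRG genes, Ifi47 included, were positive in AngII+ETH against AngII, 0 of 4 in AngII against saline and 3 of 4 in AngII+ETH against saline. Each of the 4 was highest in AngII+ETH replicate 5.

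Ifi27l2a, at chr12:103442167-103443680 on the minus strand, had the largest log2 fold change of the 42 genes, in size, in AngII+ETH against AngII and in AngII against saline. It had 26.7 to 59.1 FPKM in AngII+ETH (median 44.6), 6.49 to 57.9 FPKM in AngII (median 14.6) and 17.6 to 147 FPKM in saline (median 51.1). In AngII, 4 of 6 libraries were at or under 14.7 FPKM, below every AngII+ETH and every saline library, while AngII replicates 1 and 6 lay at 34.1 and 57.9 FPKM. The log2 fold change was 1.25 (SE 0.50, adjusted p = 1) in AngII+ETH against AngII, -1.55 (SE 0.50, adjusted p = 0.486) in AngII against saline and -0.29 (SE 0.50, adjusted p = 0.898) in AngII+ETH against saline. Its highest saline values, 147 FPKM in replicate 6 and 102 FPKM in replicate 4, were in the libraries with the most Adipoq, and those also held 405 and 215 FPKM of Ifi27, a related gene, against 12.1 to 44.5 FPKM in the other 16. Without these saline libraries the log2 fold change of Ifi27l2a was -0.95 in AngII against saline and 0.30 in AngII+ETH against saline. The adipocyte marker level averaged 1.57 ± 1.25 in AngII+ETH, 0.52 ± 0.39 in AngII and 3.39 ± 2.50 in saline on the log2(FPKM + 1) scale (SD, n = 6 each). Between AngII and saline an exact two-sided permutation test of that level gave p = 0.0195, adjusted p = 0.292 over 15 marker tests. Of the other interferon-induced genes, Ifi35, Rtp4, Xaf1 and Parp9 had log2 fold changes between 0.07 and 0.24 in AngII+ETH against AngII, and Parp14, an ADP-ribosyltransferase gene, was at -0.06 (SE 0.15, adjusted p = 1). Ifi44 was below the filter on low values, with medians of 0.626, 0.797 and 0.739 FPKM in AngII+ETH, AngII and saline.

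Macrophage markers and fibroblast markers, like the interferon response genes, averaged highest in AngII+ETH. Over 5 fibroblast markers the mean log2(FPKM + 1) was 6.14 ± 0.80 in AngII+ETH, 5.87 ± 0.58 in AngII and 6.04 ± 0.64 in saline. Over 6 endothelial markers it was 5.34 in AngII+ETH, 5.39 in AngII and 5.19 in saline. The mean log2(FPKM + 1) of 14 macrophage markers was 3.30 ± 0.34 in AngII+ETH, 2.99 ± 0.26 in AngII and 3.17 ± 0.39 in saline (SD, n = 6 each). Ranges were 2.83 to 3.72 in AngII+ETH, 2.57 to 3.34 in AngII and 2.55 to 3.59 in saline. All 14 markers averaged higher in AngII+ETH than in AngII, and 2 of 14 were higher in AngII than in saline. Between AngII+ETH and saline, 10 of 14 were higher in AngII+ETH by the mean of log2(FPKM + 1) and 8 of 14 by mean FPKM. In an exact two-sided permutation test the level differed with p = 0.119 between AngII+ETH and AngII, 0.364 between AngII and saline and 0.565 between AngII+ETH and saline, with adjusted p of 0.446, 0.702 and 0.735 over 15 marker tests. Csf1r was listed at 0 in 1 library, Mertk in 1 and the chemokine receptor gene Cx3cr1 in 2, and the other 11 markers were above 0 everywhere. Cx3cr1 averaged 2.24 FPKM in AngII+ETH, 0.853 FPKM in AngII and 0.803 FPKM in saline, with a log2 fold change of 0.80 (SE 0.24, adjusted p = 1) in AngII+ETH against AngII. AngII+ETH replicate 5, highest for 23 of the 42 genes, also had the highest macrophage level of all 18 libraries, 3.72, the highest endothelial level, 5.60, and the highest fibroblast level, 6.98. In AngII+ETH replicate 2 the macrophage level was 3.67 and the mean over the interferon response genes was 2.09, the lowest of its group. AngII+ETH replicates 4 and 3 lay close to that mean, at 2.09 and 2.10. With the macrophage level as a covariate, 23 of the 42 genes were positive in AngII+ETH against AngII, against 39.7% of all genes. The median log2 fold change in that fit was 0.03 for the 42 and -0.05 for all genes. With the atrial minus ventricular marker level as the covariate instead, 38 of the 42 were positive, against 61.3% of all genes. The medians were then 0.22 for the 42 and 0.04 for all genes. No fibroblast or endothelial covariate was fitted, and the part of any cell type in these differences was not tested.

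**Figure D5:**
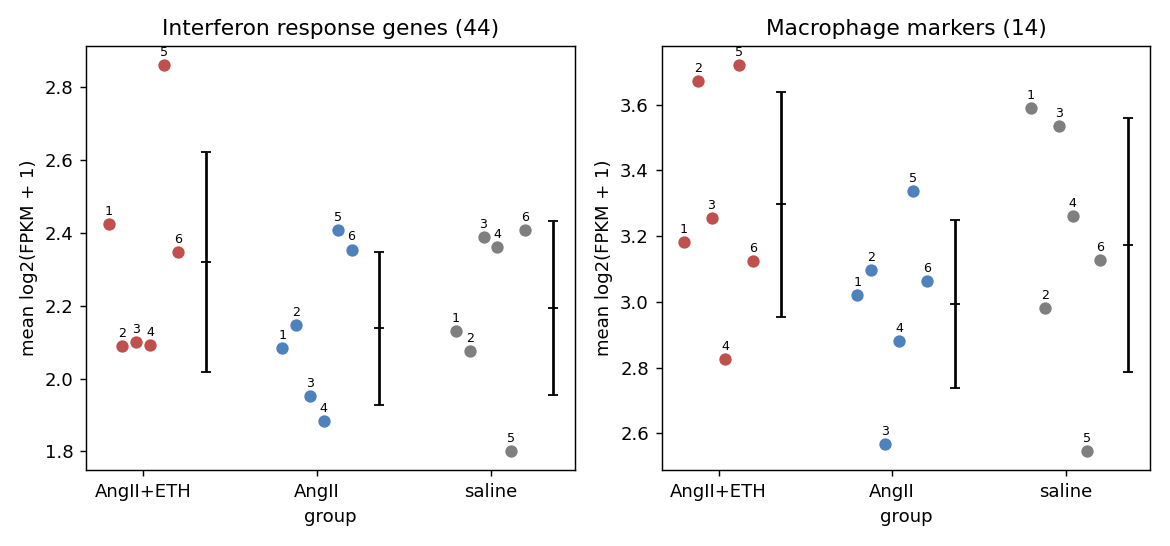
Mean log2(FPKM + 1) of the 44 interferon response genes (left) and of 14 macrophage markers (right) in each library of AngII+ETH, AngII and saline, with replicate numbers above the points and the group mean ± SD beside them (n = 6). Replicate 5 of AngII+ETH is highest in both panels, at 2.86 and 3.72, and replicate 2 of AngII+ETH is high in the right panel only.

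Genes with and without an ISRE match had similar values in AngII+ETH against AngII. A gene without a match lacked GAAANNGAAA in the promoter stretch searched, and an ISRE elsewhere or of another form was not looked for. The split is thus not one between genes with and without an ISRE. The median log2 fold change was 0.16 for the 20 tested genes with a match in the promoter, of which 18 were positive, and 0.14 for the 14 without, of which 12 were positive. In AngII against saline the medians were -0.07 with 7 of 20 positive and 0.004 with 7 of 14 positive. They lay further apart in AngII+ETH against saline, at 0.04 with 11 of 20 positive for genes with a match and 0.14 with 11 of 14 positive for genes without. Of all genes, 56.8%, 39.2% and 43.7% were positive in these comparisons, in the order given.

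Further genes of the pathway were taken from a list of 108, of which 77 had a transcript in every file and 72 were tested. None of the 72 passed the threshold in any of the 3 comparisons, against 0% of all genes in AngII+ETH against AngII and 0.00854% against saline. The log2 fold change was positive for 50 of 72 in AngII+ETH against AngII, against 56.8% of all genes (medians 0.10 and 0.02). In AngII against saline 21 of 72 were positive, against 39.2% of all genes (medians -0.06 and -0.06). In AngII+ETH against saline 40 of 72 were positive, against 43.7% of all genes (medians 0.03 and -0.03). In AngII+ETH against AngII the receptor and kinase genes were near 0 on the log2 scale: Ifnar1 at -0.01, Ifnar2 at 0.07, Ifngr1 at 0.10, Ifngr2 at 0.02, Jak1 at -0.02 and Tyk2 at -0.01, all with adjusted p = 1. The genes with the smallest p in that comparison were Slfn2 at 0.39 (SE 0.16, adjusted p = 1) and the IRG gene Iigp1 at 0.76 (SE 0.36, adjusted p = 1) upward, and Trim34a at -0.58 (SE 0.25, adjusted p = 1) and the adaptor gene of RNA sensing, Mavs, at -0.42 (SE 0.20, adjusted p = 1) downward. In AngII against saline they included Psmb10 at 0.21 (SE 0.16, adjusted p = 0.722) and Ifngr2 at 0.27 (SE 0.21, adjusted p = 0.729) upward, and Ifi27 at -1.36 (SE 0.62, adjusted p = 0.544) downward. Without saline replicates 4 and 6, the libraries with the most Adipoq, Ifi27 was at -0.16 (adjusted p = 0.999). In AngII+ETH against saline the endosomal RNA sensor gene Tlr3 was at -0.84 (SE 0.28, adjusted p = 0.493), with 0 to 1.43 FPKM in AngII+ETH and 0.866 to 2.48 FPKM in saline. Beside it in that comparison stood Trim34a at -0.53 (SE 0.25, adjusted p = 0.660), Trim14 at 0.33 (SE 0.14, adjusted p = 0.627) and Slfn2 at 0.34 (SE 0.16, adjusted p = 0.660).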

How the data were processed

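The deposited files give 1 value per transcript and library; the labels name no unit, and the values were taken as FPKM made by the authors, from the values themselves, since 1 fragment is worth less in longer transcripts. Per the labels' protocols, ribosomal RNA was removed from total RNA before library preparation. The sources used here give no aligner, counter or genome build, and limma is named in the submitters' processing notes. FPKM of Ensembl transcripts common to all files were summed per gene with GENCODE M21, and unnamed assembled transcripts, 10.4% to 15.7% of the common sum, were left out. Library depth is not given: steps of the low values put it at 63.6 to 80.5 fragments per FPKM and kilobase, but only 30.8% to 53.3% of low values came out whole within 0.05, so no count test was run. Genes whose mean reached 1 FPKM in any group were fitted with limma 3.58.1 (R 4.3.3) on log2(FPKM + 1) with an intensity trend, all 18 libraries in 1 fit, and p-values were Benjamini-Hochberg adjusted over all 11703 genes. Fold changes on this scale understate those of low genes. The script was tested on simulated data. Marker levels were compared with exact permutation tests. Shared 50-base stretches were counted between GENCODE transcripts. Replicates are numbered in accession order, which pairs nothing. The interferon response genes, their grouping by role and the further lists were chosen with earlier results of these data known, so counts over them are descriptions. Named with statistics in at least 1 comparison were a set of 22 genes, apart from Mx1 and Zbp1, which were not tested. Each comparison added the 3 genes with the smallest p in each direction, or 2 in each direction for the further pathway genes. The values of 1 further pathway gene named by this rule are not reported here. Alternatives were other pseudocounts, filters, scalings, weights, covariates, transcript sums and left-out libraries.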

Additional observations from a re-analysis of the deposited data

Results flagged for a closer look

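Each of the 44 genes and their mean level were looked at in each of the 3 groups of 6 libraries, 135 sets in all. In 9 of them, all of single genes, a library lay far from the others by Dixon's test, and chance flags about 1 in 20. AngII+ETH replicate 5 was far above its group for Irf2 at 8.17 FPKM, for Ifih1 at 2.999 FPKM and for Eif2ak2 at 2.92 FPKM. AngII replicate 1 was far below its group for Gbp3, at 0.0505 FPKM. Saline replicate 5 was far below its group for Ifih1 at 0.805 FPKM, for Gbp2 at 5.51 FPKM and for Rtp4 at 0.306 FPKM. Saline replicate 2 was far below its group for Ifit3b at 0.135 FPKM and for Usp18 at 0.369 FPKM. Of the tested genes above 0 in every library, 18.3% were lowest in saline replicate 5 and 11.1% in saline replicate 2. The macrophage and fibroblast levels were also lowest in saline replicate 5, at 2.55 and 4.77.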

How the results depend on the processing

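None of the interferon response genes tested passed the threshold under any alternative. The number of all genes past the threshold in AngII against saline, 1, was 2 with median-of-ratios scaling, 2 with quantile normalization, 3 with array weights, 5 with the chamber marker covariate, 2 when libraries low in Myl7 or Myl2 (under 10 FPKM) were left out, 0 with only the 2 groups in the fit and 0 with all their transcripts summed. In AngII+ETH against AngII, 0 was 1 without the libraries with low Myl7 or Myl2. There, 148 genes were higher and 76 lower at an unadjusted p under 0.05. In AngII+ETH against saline, 1 was 4 with array weights, 4 with the macrophage covariate, 0 with only the 2 groups and 2 without the libraries with low Myl7 or Myl2. Without the saline libraries rich in Adipoq, a choice made after seeing the data, the count was 2 against saline in AngII and 2 in AngII+ETH. Leaving out each library in turn gave 0 to 11, 0 to 0 and 0 to 8 genes, the highest without saline replicate 5. The median over the interferon response genes then ran between -0.13 and 0.00095 in AngII against saline, 0.07 and 0.24 in AngII+ETH against AngII, and -0.01 and 0.15 in AngII+ETH against saline. With quantile normalization, 32 of 42 were positive in AngII+ETH against AngII, against 45.8% of all genes. With a pseudocount of 0.1, Irf8 was at 2.44 and Gbp3 at -1.29 in AngII against saline. That Irf8 value leaves out the transcript present in the saline and AngII files only. With that transcript added and a pseudocount of 1, Irf8 was at 0.16. The cause of the differences between settings was not tested. Library depth is not given, so no counting error can be stated for the genes of low FPKM. No paired analysis was possible because the labels carry no replicate numbers.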
